A study of Homo sapiens with 28 samples.

Results

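CHL-1 melanoma cells that had been exposed for 24 h to 468 nM BAY1238097 were compared directly with cells exposed for 24 h to 75 nM of the same compound. The comparison held 10 of the 28 arrays of the series, 5 at each dose, chosen by the dose and time in the sample titles. CHL-1 is an established human melanoma cell line, and all arrays came from this 1 line, so nothing here speaks for other melanomas. BAY1238097 blocks the bromodomains of the BET proteins, and the submitters gave the higher dose as the IC90 of the compound in these cells and the lower dose as its IC50. The question addressed was how transcription depends on the dose. The other 18 arrays were the same doses at 4 h (5 arrays each) and the solvent DMSO at 24 h and at 4 h (4 arrays each). Cells were kept in DMEM medium containing fetal calf serum, and none carried a genetic change made for the study, as far as the labels say. The replicate numbers used here name arrays in accession order, and the doses were compared without pairing them.

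BET proteins, among them BRD2 and BRD3, bind acetylated lysines of histones and recruit the elongation kinase P-TEFb to promoters and enhancers. Inhibitors of their bromodomains release them from chromatin, and genes that depend on strong enhancers are known to be among the most sensitive. HEXIM1, which holds P-TEFb in an inactive complex, is a known marker of exposure to such compounds because its RNA rises.

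The values were probe set intensities, normalised by the submitters with RMA, and are given here on the log2 scale, so that a difference of 1 is a doubling. Each gene was represented by 1 probe set, and genes had to exceed a log2 value of 5 on 4 or more of the 28 arrays to be tested, which left 9285. The median of all probe sets lay between 2.44 and 2.49 on every array, so a gene with a level near 2.5 cannot be told from an absent one and the size of its difference is uncertain. In a principal component analysis of the 24 h arrays, component 1 held 46.7% of the variance. The 468 nM arrays lay between 24.8 and 39.6 on it, the 75 nM arrays between -12.1 and -8.3 and the DMSO arrays between -29.4 and -24.4. Component 2 held 9.31%, and 468 nM replicate 4 lay at -26.2 on it, with the next lowest 468 nM array at -4.28. Replicate 4 also had the highest level of cell division genes among the 468 nM arrays, and the main cell division counts are given with and without it. Of 10 markers each of keratinocytes and of endothelial cells, 0 were measurable. FBLN1, the 1 measurable fibroblast marker, did not pass the test, and of the 2 measurable leukocyte markers CD68 did not pass while LCP1, an actin-bundling protein, was higher at 468 nM (0.51 ± 0.14, limma adjusted p = 0.00744). These arrays held whole cultures, in which fewer cells of a type and less RNA per cell cannot be told apart. Nothing in the labels says whether arrays of 1 group stem from separate cultures. The p-values therefore speak only of the spread among these arrays, and that spread may be technical.

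At an adjusted p below 0.05 in limma, 2860 of 9285 genes differed between the doses at 24 h (30.8%). Of these 1246 were higher at 468 nM (13.4% of the genes tested) and 1614 were lower (17.4%). Large differences were mostly falls: 64 genes were higher and 314 lower at least 2-fold, and 2 genes were higher and 16 lower at least 4-fold. The 2 genes higher at least 4-fold were the histone gene H2BC18 and TXNIP. Among the genes tested, 176 passed the filter on dim genes only with the help of the 468 nM arrays at 24 h, and 63 of the 1246 higher genes were of this kind, H2BC18 among them. Such genes had to be high at 468 nM to be tested at all, so they are marked where they are named. Likewise 91 genes passed only with the help of the 75 nM arrays at 24 h, of which 8 were called lower and 4 higher at 468 nM. In 694 of the higher and 918 of the lower genes, no array of one dose overlapped the arrays of the other. Differences and overlap come from the same arrays, so these counts are no added support for the calls. The share without overlap among all genes tested is not given. The median difference over all genes tested was -0.01, with quartiles of -0.27 and 0.22, and the median standard error of a difference was 0.14.

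**Figure D1:**
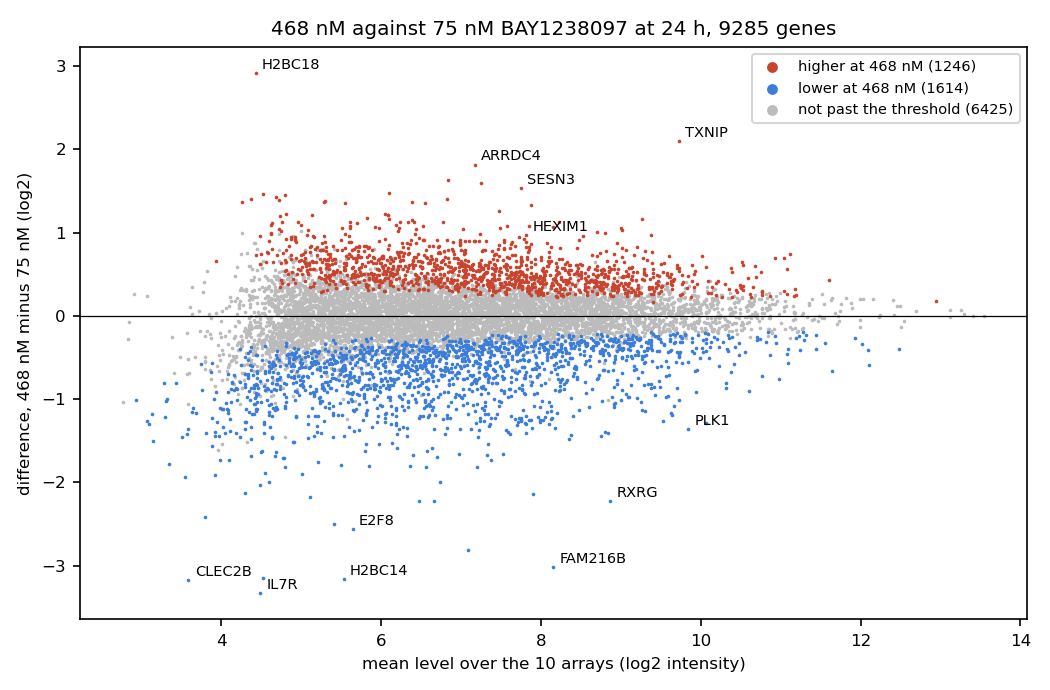
Difference between 468 nM and 75 nM at 24 h (y axis, log2) against the mean level over the 10 arrays (x axis, log2 intensity), 1 point per gene. Red points mark the 1246 genes higher at 468 nM, blue points the 1614 lower genes and grey points the other genes tested; the falls reach further from 0 than the rises, and several of the lowest points lie at low mean levels.

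The falls in this and the next paragraph, and those of H2BC14 and E2F8 below, were picked among genes without overlap between the doses. Their lack of overlap was fixed by that choice and is no added support. The gene with the largest fall was IL7R, the interleukin-7 receptor subunit. Its log2 level was 2.66, 3.39, 2.57, 2.81 and 2.68 at 468 nM, against 6.20, 6.06, 6.35, 5.62 and 6.54 at 75 nM. Every 468 nM array lay more than 2 units below every 75 nM array, near the level of absent genes. The difference was -3.33 ± 0.27 (10.1-fold lower, limma adjusted p = 1.69e-09), and DMSO arrays averaged 7.54 ± 0.46 (SD, n = 4). CLEC2B, a C-type lectin-like ligand of a natural killer cell receptor, stood at 1.87, 1.93, 2.34, 2.11 and 1.77 at 468 nM, against 5.12, 4.84, 5.13, 5.61 and 5.20 at 75 nM. All 5 arrays at 468 nM were below the median of all probe sets, while the 75 nM arrays formed a narrow band, and the difference was -3.18 ± 0.21 (limma adjusted p = 1.50e-10). IL1RL1, the receptor for interleukin-33, fell to between 2.46 and 3.49 at 468 nM, against 5.60 to 6.40 at 75 nM (-3.15 ± 0.47, limma adjusted p = 1.39e-05). For these 3 genes the fall ended near the floor of the arrays, so its size is uncertain.

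Other large falls, picked in the same way, started from higher levels, apart from that of IL6. FAM216B had values of 7.31, 6.29, 7.11, 6.32 and 6.20 at 468 nM, against 9.96, 9.28, 9.70, 9.62 and 9.76 at 75 nM. The groups were almost 2 units apart at their nearest arrays, and all 75 nM arrays lay below the DMSO mean of 10.11 ± 0.20 (SD, n = 4). The difference was -3.02 ± 0.23, an 8.12-fold fall (limma adjusted p = 6.72e-10). CLEC12B, an inhibitory C-type lectin receptor, had 6.11, 4.42, 6.37, 5.77 and 5.76 at 468 nM, against 8.64, 8.23, 8.60, 8.62 and 8.39 at 75 nM. Replicate 2 was the lowest of the 468 nM arrays, the groups did not overlap, and the difference was -2.81 ± 0.24 (limma adjusted p = 3.64e-09). RXRG, a retinoid X receptor, stood at 7.69, 6.87, 8.22, 7.48 and 8.54 at 468 nM, against 9.97, 9.51, 10.09, 10.05 and 10.29 at 75 nM, with no overlap between the doses (-2.22 ± 0.20, limma adjusted p = 1.15e-08). BCAT1, the cytosolic enzyme that transaminates branched-chain amino acids, differed by -2.23 ± 0.16 (limma adjusted p = 2.53e-10), and the adhesion molecule CLMP by -2.23 ± 0.16 (limma adjusted p = 2.53e-10). GIPC3, a PDZ domain protein, was at 3.38 to 4.89 at 468 nM, against 6.28 to 7.17 at 75 nM (-2.50 ± 0.25, limma adjusted p = 3.17e-08). IL6, an inflammatory cytokine, had 3.32, 2.40, 2.43, 2.39 and 2.44 at 468 nM, against 5.78, 5.08, 5.17, 3.43 and 5.57 at 75 nM. At 468 nM it lay near the floor on every array but replicate 1, while 75 nM replicate 4 was well below the other 75 nM arrays and only just above 468 nM replicate 1 (-2.41 ± 0.55, limma adjusted p = 0.00161). The size of the IL6 fall is therefore uncertain too.

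The rises were smaller and fewer. Those in this paragraph, and that of H2BC18 below, were likewise picked among genes without overlap. For them too, lack of overlap is no added support. TXNIP, an inhibitor of thioredoxin that also restrains glucose uptake, had 10.48, 10.98, 10.997, 10.76 and 10.66 at 468 nM, against 8.42, 8.57, 8.87, 8.64 and 8.88 at 75 nM. All 468 nM arrays were above 10.4 and all 75 nM arrays below 8.9, a difference of 2.10 ± 0.17 (4.28-fold higher, limma adjusted p = 1.38e-09), with a DMSO mean of 8.01 ± 0.17 (SD, n = 4). ARRDC4, an alpha-arrestin related to TXNIP, stood at 7.79, 8.28, 8.31, 8.34 and 7.70 at 468 nM, against 5.90, 6.45, 6.44, 6.23 and 6.32 at 75 nM. Its groups did not overlap (1.82 ± 0.14, limma adjusted p = 6.76e-10), and the 75 nM arrays lay near the DMSO mean of 5.97 ± 0.20 (SD, n = 4). SAT1, which acetylates polyamines for their breakdown, rose by 1.64 ± 0.26 (limma adjusted p = 3.48e-05). SESN3, a sestrin that restrains mTORC1 signalling, had 8.19, 9.13, 8.59, 8.46 and 8.21 at 468 nM, against 7.10, 6.88, 7.15, 6.86 and 6.93 at 75 nM. Replicate 2 was the highest 468 nM array and the 75 nM arrays lay within 0.3 of each other (1.53 ± 0.15, limma adjusted p = 3.47e-08). GADD45A, a growth arrest and DNA damage gene, was at 7.18, 7.73, 7.80, 7.28 and 7.68 at 468 nM, against 5.63, 6.62, 6.43, 6.27 and 5.71 at 75 nM. The 75 nM arrays spread over almost 1 unit around the DMSO mean of 6.24 ± 0.12 (SD, n = 4) and did not reach the 468 nM arrays (1.40 ± 0.15, limma adjusted p = 1.75e-07). VASN, a membrane protein that binds TGF-beta, rose by 1.41 ± 0.27 (limma adjusted p = 3.08e-04) and was dim at 75 nM, where its arrays lay between 3.02 and 4.31. The other genes among the 12 largest rises without overlap were FAM228B (1.47 ± 0.20), FAM227A (1.43 ± 0.23), the antisense RNA gene TMEM9B-AS1 (1.38 ± 0.24) and the pseudogenes TOB2P1 (1.48 ± 0.21) and H2BC20P (1.60 ± 0.21). FAM228B, FAM227A and TMEM9B-AS1 passed the filter only through the 468 nM arrays at 24 h, and over all other arrays FAM228B reached 4.06 at most and FAM227A 4.33.

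**Figure D2:**
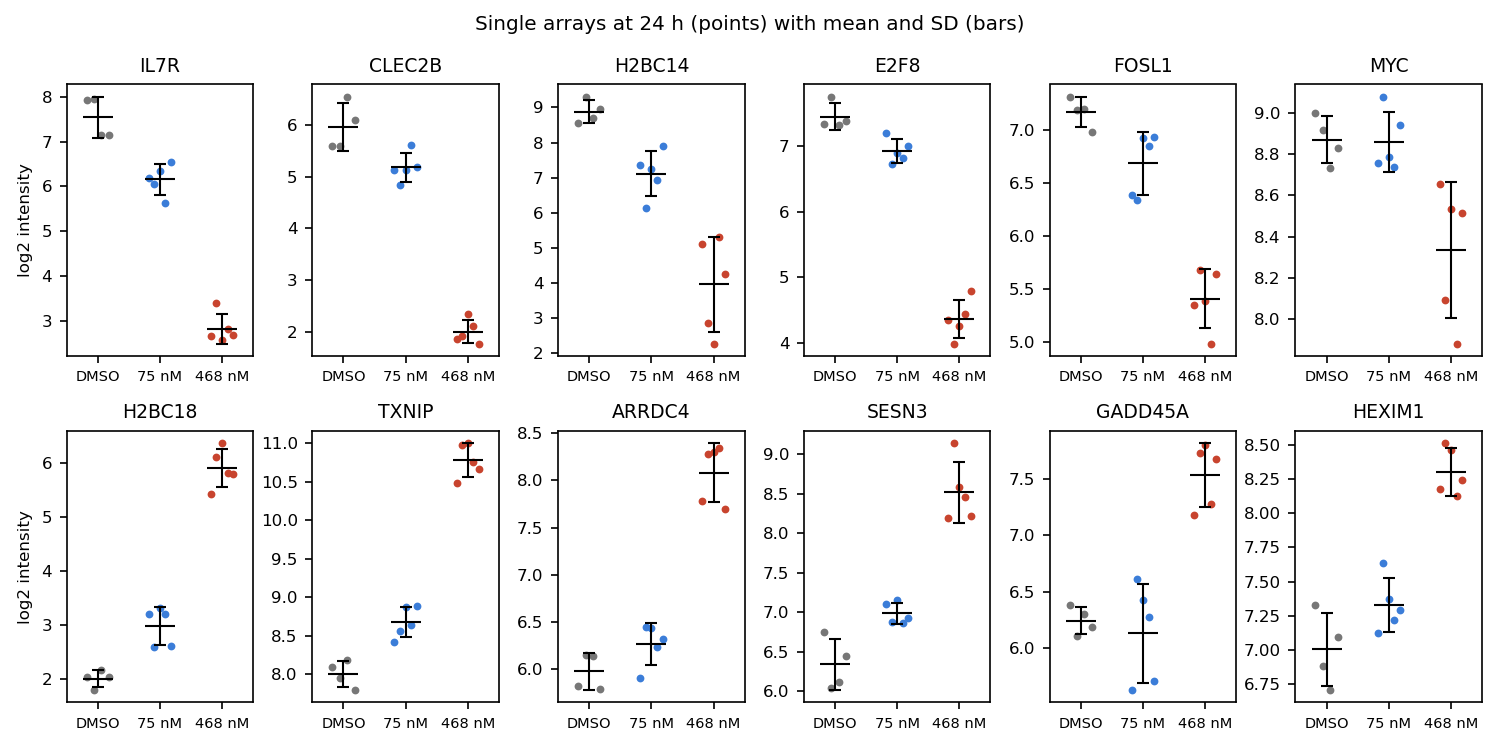
Log2 intensity (y axis) of 12 genes on every 24 h array at DMSO (4 arrays), 75 nM and 468 nM (5 arrays each), with the mean and SD as bars. In the upper row the genes fell at 468 nM and in the lower row they rose. IL7R, CLEC2B and some arrays of H2BC14 reach the floor at 468 nM, and H2BC18 lies near it at 75 nM and in DMSO. Only MYC and HEXIM1 differ by less than 1 between the doses.

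Among the BET proteins and elongation factors, 5 of 21 measured genes rose and 1 fell, with a median difference of 0.15. That share (28.6%) is near the 30.8% of all genes tested. HEXIM1 stood at 8.18, 8.51, 8.46, 8.12 and 8.24 at 468 nM, against 7.13, 7.64, 7.37, 7.22 and 7.29 at 75 nM. Its arrays did not overlap, and the difference was 0.97 ± 0.12, a 1.96-fold rise (limma adjusted p = 7.70e-07). ELL2, an elongation factor that joins P-TEFb in the super elongation complex, rose by 0.61 ± 0.08 (limma adjusted p = 1.51e-06). MLLT3, a reader protein of the same complex, rose by 0.69 ± 0.12 (limma adjusted p = 6.79e-05), and SUPT4H1, a subunit of the elongation factor DSIF, by 0.46 ± 0.09 (limma adjusted p = 3.59e-04). The remaining members that passed were AFF1 (0.39), the scaffold of the super elongation complex, and MLLT1 (-0.38), a reader related to MLLT3, both named after their values were seen. AFF1 missed the threshold without 468 nM replicate 2 (limma adjusted p = 0.105) or 75 nM replicate 1 (0.0541). BRD2 and BRD3 did not pass: BRD2 differed by 0.15 ± 0.07 (adjusted p = 0.12) and BRD3 by 0.18 ± 0.14 (adjusted p = 0.329) in limma. The probe sets of BRD2 disagreed, with differences between -0.46 and 0.21, and the brightest was used.

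MYC, the growth-promoting transcription factor, was lower at the higher dose. Its level was 8.66, 8.09, 8.54, 7.88 and 8.52 at 468 nM, against 8.76, 9.08, 8.79, 8.74 and 8.95 at 75 nM. Replicates 2 and 4 were the lowest 468 nM arrays and the other 3 lay just under the 75 nM arrays, so the groups did not overlap, but the difference was only -0.53 ± 0.13 (1.44-fold lower, limma adjusted p = 0.00225). The 75 nM arrays averaged 8.86 ± 0.15 (SD, n = 5) and the DMSO arrays 8.87 ± 0.12 (SD, n = 4). Of the 9 measured members of the MYC, MAX and MXD network, MYC fell and MXD1, a MAX partner that represses MYC target genes, rose (0.71 ± 0.18, limma adjusted p = 0.00359). No other member passed, and the share (22.2%) is below the 30.8% of all genes tested. MXD1 is measured by 2 probe sets, of which the dimmer one lay below the filter value with a difference of -0.05, and their mean gave 0.33 (limma adjusted p = 0.421). The MYC antagonist MNT differed by 0.18 ± 0.17 (adjusted p = 0.454), and BIN1 by -0.33 ± 0.18 (adjusted p = 0.156). In the axis of TXNIP, ARRDC4 and their activators MondoA (MLXIP) and MLX, the 3 arrestin genes rose and the activators did not pass. ARRDC3, the third arrestin gene, rose by 0.71 ± 0.17 (limma adjusted p = 0.00231), while MLX differed by -0.07 ± 0.12 (adjusted p = 0.685).

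Genes of cell division fell together. In the cell division lists 68% to 100% of the measured members passed, beside 30.8% of all genes tested. Of 45 measured mitotic kinase, spindle and cytokinesis genes, all 45 were lower at 468 nM and 0 higher, with a median of -1.22 and a range of -1.81 to -0.47, beside a median of -0.01 over all genes tested. Their mean level was 6.98, 6.98, 7.14, 7.83 and 7.03 on the 468 nM arrays, against 8.32, 8.34, 8.37, 8.69 and 8.29 on the 75 nM arrays. Replicate 4 had the highest mean in both groups, and at 468 nM it stood apart from the other arrays without reaching the 75 nM arrays. DMSO replicate 3, next to these arrays by its title number, had the highest DMSO mean (8.84). Without 468 nM replicate 4 the same list had a median of -1.39, with 45 members lower. PLK1, a kinase that drives entry into and exit from mitosis, had 9.10, 8.76, 9.03, 9.59 and 9.32 at 468 nM, against 10.41, 10.47, 10.44, 10.72 and 10.58 at 75 nM. No arrays overlapped (-1.36 ± 0.11, 2.57-fold lower, limma adjusted p = 2.77e-09). Falls without overlap were also seen for KIF11, the motor that separates the spindle poles (-1.47 ± 0.14), for ANLN, the scaffold of the cleavage furrow (-1.13 ± 0.10), and for CEP55, needed for the final separation of daughter cells (-1.30 ± 0.11). MKI67, the proliferation marker, was at 7.91, 8.14, 7.85, 8.40 and 7.90 at 468 nM, against 9.22, 9.49, 9.24, 10.10 and 9.34 at 75 nM. The groups were 0.8 apart at their nearest arrays (-1.44 ± 0.19, limma adjusted p = 1.99e-06). CDK1, the kinase that starts mitosis, stood at 6.02, 6.44, 7.06, 7.60 and 6.50 at 468 nM, against 7.90, 7.61, 7.72, 8.30 and 7.76 at 75 nM. Its 468 nM arrays were widely spread, and replicate 4 lay just below the lowest 75 nM array (-1.13 ± 0.19, limma adjusted p = 5.63e-05).

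DNA replication genes moved the same way: 43 of 49 fell and 0 rose, with a median of -0.84. Without 468 nM replicate 4 the count was 46 and the median -0.98. MCM10, which helps to activate the replicative helicase, had 6.89, 6.74, 6.90, 7.27 and 6.74 at 468 nM, against 8.29, 8.33, 8.48, 8.18 and 8.37 at 75 nM. The nearest arrays of the doses were 0.9 apart (-1.42 ± 0.10, limma adjusted p = 4.32e-10). UHRF1, which brings the maintenance DNA methyltransferase to new DNA, fell to 6.66 to 7.14 at 468 nM, against 8.11 to 8.42 at 75 nM (-1.38 ± 0.11, limma adjusted p = 1.42e-09). The origin licensing factor CDC6 (-1.27 ± 0.11) and the helicase subunit MCM5 (-1.21 ± 0.11) fell as well. The 6 that did not pass, named after their values were seen, were the origin proteins ORC2 and ORC3, the polymerase subunits POLD1 and POLD2, and the single-strand binding proteins RPA2 and RPA3. Among G1/S and E2F regulators 18 of 23 fell and 0 rose (median -0.67). E2F8, an atypical E2F that represses transcription, was at 4.35, 3.99, 4.26, 4.45 and 4.79 at 468 nM, against 7.19, 6.72, 6.89, 6.82 and 7.01 at 75 nM. The 468 nM arrays all lay below 5 and the 75 nM arrays all above 6.7 (-2.56 ± 0.15, 5.9-fold lower, limma adjusted p = 9.68e-12). CDC25A, the phosphatase that activates cyclin-dependent kinases, fell (-1.34 ± 0.10, limma adjusted p = 8.51e-10), and so did CCNA2, cyclin A2 (-1.39 ± 0.13), and MYBL2, a transcription factor of the G2 programme (-1.17 ± 0.12). The 5 members that did not pass were the cyclin D1 gene CCND1 (-0.22 ± 0.11, adjusted p = 0.154), RB1, RBL2, E2F4 and TFDP2, the last 4 named after their values were seen.

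Centromere and kinetochore genes included 28 falls and 0 rises among 31 measured (median -1.0, and -1.13 without 468 nM replicate 4). SPC24, a subunit of the microtubule-binding NDC80 complex, was at 6.48, 6.42, 6.75, 7.51 and 6.34 at 468 nM, against 8.28, 8.12, 8.26, 8.68 and 8.46 at 75 nM. Replicate 4 was again the highest 468 nM array, and the groups did not overlap (-1.66 ± 0.18, limma adjusted p = 1.90e-07). HJURP, the chaperone that places the centromeric histone, fell (-1.41 ± 0.16), as did SKA1 of the spindle-attachment complex (-1.36 ± 0.15) and CENPN (-1.03 ± 0.13). CENPC, CENPP and NSL1, named after their values were seen, did not pass. Of 22 condensin and cohesin genes 17 fell, and the smallest p-values were those of the condensin subunits SMC2 (-1.03 ± 0.10), NCAPH (-1.23 ± 0.14), NCAPG2 (-0.92 ± 0.12) and NCAPD3 (-0.75 ± 0.10). NCAPH2, a fall named after its value was seen, lost its call on leaving out 7 of the 10 arrays (limma adjusted p of 0.0522 to 0.158). The cohesin loader partner MAU2 (0.28, named after its value was seen) was the 1 that rose, but it missed the threshold after the shift by reference genes (limma adjusted p = 0.0509) and on leaving out any of 8 of the 10 arrays, all but 468 nM replicates 2 and 4 (0.0502 to 0.166). Recombination, Fanconi and checkpoint genes had 17 falls and 0 rises among 25 (median -0.77). BARD1, a fall named after its value was seen, lost its call on leaving out 6 of the 10 arrays (limma adjusted p of 0.0536 to 0.109). The nuclease EXO1 (-1.21 ± 0.11), the checkpoint kinase CHEK1 (-0.92 ± 0.09), the CDK1-inhibiting kinase WEE1 (-0.77 ± 0.10) and the recombinase partner RAD51AP1 (-1.17 ± 0.15) had the smallest p-values.

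**Figure D3:**
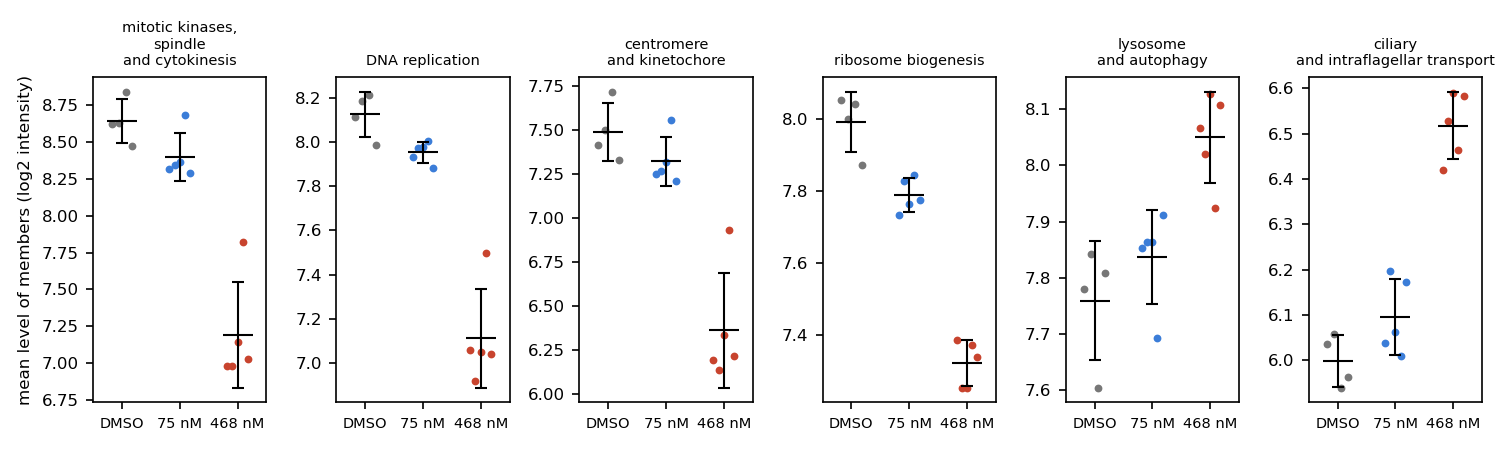
Mean log2 intensity of the measured members of 6 gene lists (y axis, a scale per panel) on every 24 h array at DMSO (4 arrays), 75 nM and 468 nM (5 arrays each), with mean and SD as bars. In the 3 cell division lists 468 nM replicate 4 stands above the other 468 nM arrays and below all 75 nM arrays; ribosome biogenesis genes are lower and ciliary genes higher on every 468 nM array than on any 75 nM array.

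Promoter sequence was examined for the cell division lists because their members moved together. The windows were those of NCBI RefSeq on GRCh38.p14, from 250 bases before to 50 bases after the start of a gene, and 7506 of the 9285 genes tested had one. The cell cycle genes homology region (CHR), which the MuvB-containing DREAM complex binds, was searched as TTTGAA or TTCGAA, and the E2F site as TTTGGCGC, TTTCGCGC, TTTCCCGC or TTTGCCGC, each on both strands, so that a match to the other strand is printed as its reverse complement. The CHR letters were in 29 of 38 mitotic promoters (76.3%) and in 13 of 25 centromere and kinetochore promoters (52.0%), beside 11.4% of tested genes and 16.6% of all 27305 promoters. They were in 9 of 19 condensin and cohesin promoters (47.4%), in 3 of 18 of G1/S and E2F regulators (16.7%) and in 2 of 23 of recombination, Fanconi and checkpoint genes (8.70%). The E2F letters were in 20 of 43 DNA replication promoters (46.5%), beside 5.98% of tested genes and 3.33% of all promoters. For G1/S and E2F regulators they were in 6 of 18 (33.3%), and for recombination, Fanconi and checkpoint genes in 4 of 23 (17.4%). Only 2 of those 43 replication promoters held the CHR letters and only 3 of 38 mitotic promoters the E2F letters. The letters CCAAT were more common than either: in 31 of 38 mitotic (81.6%), 15 of 25 centromere and kinetochore (60%) and 25 of 43 replication promoters (58.1%). They were in 6 of 18 of G1/S and E2F regulators (33.3%), beside 37.7% of tested genes. E-box, AP-1, cAMP response, TEAD and sterol response letters were searched too and are not described here. Over all genes that fell, the CHR letters were in 18.6% of promoters and the E2F letters in 9.33%, against 8.24% and 4.17% of those that rose and 10.2% and 5.49% of those that did not pass. Such matches describe the sequence and do not show that a factor was bound. Stretches from 70 bases before to 30 bases after the start are shown for 4 mitotic genes, with the CHR letters in capitals, and for 4 genes of the replication, G1/S and recombination lists, with the E2F letters in capitals. Only genes that hold these letters in the stretch are shown, so they do not stand for their lists. MCM10, CCNA2, MYBL2, CHEK1 and RAD51AP1, named above, had no E2F letters in the whole window. In ANLN both copies of the CHR letters adjoin on opposite strands, and in no stretch shown do the CHR and E2F letters overlap.
PLK1 (chr16:23678819-23678918, plus strand): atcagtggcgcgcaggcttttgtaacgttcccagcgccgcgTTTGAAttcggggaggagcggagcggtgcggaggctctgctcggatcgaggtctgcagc
KIF11 (chr10:92593060-92593159, plus strand): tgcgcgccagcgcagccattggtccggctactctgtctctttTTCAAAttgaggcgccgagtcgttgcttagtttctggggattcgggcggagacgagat
ANLN (chr7:36389792-36389891, plus strand): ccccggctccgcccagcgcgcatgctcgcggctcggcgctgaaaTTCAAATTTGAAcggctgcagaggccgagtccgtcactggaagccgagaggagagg
MKI67 (chr10:128126394-128126493, minus strand): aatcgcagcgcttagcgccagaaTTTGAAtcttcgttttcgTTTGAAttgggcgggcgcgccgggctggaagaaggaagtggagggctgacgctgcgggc
UHRF1 (chr19:4909431-4909530, plus strand): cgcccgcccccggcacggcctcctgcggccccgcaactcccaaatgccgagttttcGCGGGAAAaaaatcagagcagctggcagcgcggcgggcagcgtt
CDC6 (chr17:40287809-40287908, plus strand): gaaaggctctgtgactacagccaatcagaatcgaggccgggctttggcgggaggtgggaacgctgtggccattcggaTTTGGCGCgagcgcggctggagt
CDC25A (chr3:48188388-48188487, minus strand): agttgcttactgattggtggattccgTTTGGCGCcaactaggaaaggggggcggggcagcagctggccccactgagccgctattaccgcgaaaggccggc
EXO1 (chr1:241848134-241848233, plus strand): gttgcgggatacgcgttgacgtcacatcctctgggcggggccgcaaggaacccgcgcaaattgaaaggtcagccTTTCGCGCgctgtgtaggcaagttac

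Genes of biosynthesis were lower too, by smaller amounts. In the biosynthesis lists 57.1% to 87% of the measured members passed, beside 30.8% of all genes tested. Of 35 measured ribosome biogenesis genes 27 fell and 0 rose (median -0.46), and the signed difference was below 0 in all 35. The calls of RRP9 and DDX10, named after their values were seen, were lost on leaving out 6 and 5 of the 10 arrays (limma adjusted p of 0.0529 to 0.118). The mean level of the list was 7.39, 7.25, 7.25, 7.37 and 7.34 on the 468 nM arrays, against 7.73, 7.83, 7.76, 7.85 and 7.77 on the 75 nM arrays. These groups were separated by more than the spread within either, and the DMSO arrays lay higher still in the plot of list levels. GRWD1, a nucleolar WD-repeat protein, fell to between 7.55 and 8.11 at 468 nM, against 8.53 to 8.78 at 75 nM (-0.79 ± 0.10, limma adjusted p = 1.05e-06). MYBBP1A, a nucleolar partner of MYB (-0.78 ± 0.10), NOP58, a core protein of the small nucleolar particles that guide ribosomal RNA methylation (-0.50 ± 0.07), and the nucleolar helicase DDX21 (-0.64 ± 0.09) fell without overlap. Nucleotide synthesis enzymes included 20 falls and 0 rises among 23 (median -0.55). TYMS, which makes thymidylate, was at 9.29, 9.29, 9.16, 9.96 and 9.45 at 468 nM, against 10.74, 10.79, 10.66, 10.87 and 10.51 at 75 nM. No arrays of the doses overlapped, and 468 nM replicate 4 was the highest at that dose (-1.28 ± 0.12, limma adjusted p = 1.22e-08). RRM2, a subunit of ribonucleotide reductase, fell (-0.98 ± 0.12), as did the purine enzyme PAICS (-0.67 ± 0.07) and the folate enzyme MTHFD1 (-0.87 ± 0.12). The 3 that did not pass, named after their values were seen, were ADSL, ATIC and IMPDH2. Among the falls PPAT, also named afterwards, lost its call on leaving out 7 of the 10 arrays (limma adjusted p of 0.0517 to 0.089).

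Aminoacyl-tRNA synthetases, which charge transfer RNAs, included 11 falls and 1 rise among 19 (median -0.28). YARS1 for tyrosine (-0.97 ± 0.11, limma adjusted p = 4.71e-07), VARS1 for valine (-0.59 ± 0.09), IARS1 for isoleucine (-0.56 ± 0.08) and FARSB for phenylalanine (-0.42 ± 0.08) had the smallest p-values, and QARS1 for glutamine (0.29, named after its value was seen) rose. QARS1 did not hold its call without 468 nM replicate 1, 3 or 5 or 75 nM replicate 1 or 4 (limma adjusted p of 0.0557 to 0.114). After each array was shifted by the mean of 8 reference genes, 8 of 19 fell and 0 rose. Of 7 chaperonin subunits, which fold actin and tubulin, 4 fell by small amounts: CCT5 (-0.42 ± 0.09), CCT3 (-0.27 ± 0.07), CCT8 (-0.27 ± 0.08) and CCT4 (-0.25 ± 0.08). After the same shift only 1 of the 7 passed. CCT8 missed the threshold without 468 nM replicate 3 (limma adjusted p = 0.0635), and CCT4 without 468 nM replicate 2 (0.0696) or 75 nM replicate 1 (0.0509). Genes of the ATF4 and amino acid programme had 14 falls and 1 rise among 22 (median -0.50). The glutamine transporter SLC1A5 (-0.75 ± 0.09, limma adjusted p = 4.08e-07), the cationic amino acid transporter SLC7A1 (-0.89 ± 0.11) and the serine synthesis enzymes PSAT1 (-0.73 ± 0.09) and PHGDH (-0.69 ± 0.09) fell without overlap. SLC38A2, a neutral amino acid transporter named after its value was seen, rose (0.61), and ATF4 itself was among the falls (-0.27, also named afterwards).

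Histone genes moved in opposite directions, with 3 rises and 7 falls among 20 measured (50%). H2BC14, an H2B gene, was at 5.12, 2.86, 2.27, 5.30 and 4.25 at 468 nM, against 7.37, 6.13, 7.25, 6.94 and 7.90 at 75 nM. The 468 nM arrays spread over 3 units, from the floor to above 5, and the nearest arrays of the doses were 0.8 apart (-3.16 ± 0.40, limma adjusted p = 1.18e-06). H2BC18, another H2B gene, was at 5.42, 6.10, 6.36, 5.80 and 5.79 at 468 nM, against 3.19, 2.58, 3.31, 3.20 and 2.60 at 75 nM. Its 75 nM arrays lay near the floor and above the DMSO mean of 2.0 ± 0.15 (SD, n = 4), and the difference was 2.92 ± 0.30 (limma adjusted p = 5.10e-08). It was above the filter value on the 5 arrays at 468 nM for 24 h and on 0 others. Its 3 probe sets differed by 0.80, 3.41 and 2.92, so the direction was shared and the size was not. H2AZ1, an H2A variant (-0.77 ± 0.12), and the linker histone H1-4 (-0.76 ± 0.12) fell. The further rises were H2BC21 (0.73) and H3C13 (0.74), and the further falls H1-2 (-1.05), H1-5 (-1.08), H2AC20 (-0.59) and H2AX (-0.47), all 6 named after their values were seen. H3C13 missed the threshold on leaving out 7 of the 10 arrays, all but 468 nM replicates 1 and 2 and 75 nM replicate 2 (limma adjusted p of 0.0549 to 0.141). Histone genes are near-identical copies, so probes can read RNA of a related gene, and the assignment of these values to single genes is uncertain. Among 53 histone-modifying enzymes 9 rose and 8 fell, close in share (32.1%) to the 30.8% of all genes tested, or 8 and 5 after the shift by reference genes. SUV39H1, which methylates lysine 9 of histone H3, fell to 4.77 to 5.77 at 468 nM, against 6.22 to 6.82 at 75 nM (-1.28 ± 0.16, limma adjusted p = 1.46e-06). EZH1, a Polycomb methyltransferase (0.84 ± 0.13), the acetyltransferase KAT2B (0.86 ± 0.14) and the demethylase KDM4A (0.48 ± 0.08) rose without overlap.

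Genes linked to growth restraint rose in part. Of 14 measured CDK inhibitors and p53 target genes 7 rose and 0 fell (median 0.41), beside SESN3 and GADD45A the p53 targets ZMAT3 (0.64 ± 0.10, limma adjusted p = 2.89e-05) and CCNG1 (0.53 ± 0.09, limma adjusted p = 8.46e-05). The list share was 50%, beside 30.8% of all genes tested. XPC, a rise named after its value was seen, lost its call on leaving out any of 7 single arrays (limma adjusted p of 0.0519 to 0.125). The share is therefore approximate. CDKN1A, the best-known p53 target, did not pass the filter on dim genes. The 1 measurable CDK inhibitor, CDKN1B (0.18, named after its value was seen), did not pass the test. In the YPEL family and growth restraint list 4 of 7 rose and 0 fell. KLHL24, an adaptor of a ubiquitin ligase, had 8.49, 8.69, 8.71, 8.33 and 8.51 at 468 nM, against 7.10, 7.17, 7.41, 7.14 and 7.25 at 75 nM. The 75 nM arrays lay within 0.4 of each other and more than 0.9 below the 468 nM arrays (1.33 ± 0.19, limma adjusted p = 7.50e-06). YPEL5 rose by 1.04 ± 0.13 (limma adjusted p = 1.18e-06). YPEL5 and YPEL3 passed the filter only through the 468 nM arrays at 24 h, so the count of 4 is no support for the list. YPEL3 (0.96 ± 0.33, limma adjusted p = 0.0272) and YPEL2 (0.73 ± 0.26, limma adjusted p = 0.0303) overlapped between the doses. The call of YPEL3 was lost on leaving out 468 nM replicate 1, 3 or 5 or 75 nM replicate 2 or 4 (limma adjusted p of 0.0529 to 0.0807), and YPEL2 without 468 nM replicate 1, 4 or 5 or 75 nM replicate 3 or 4 (0.0509 to 0.103).

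Genes of the BCL2 family and apoptosis went both ways, with 6 rises and 1 fall among 16 (median -0.04). Their share was 43.8%, beside 30.8% of all genes tested. The rises BIK and MCL1, named after their values were seen, each lost the call on leaving out any of 6 single arrays (limma adjusted p of 0.059 to 0.15). The share is therefore approximate. BCL2, the survival protein, had 7.45, 8.04, 7.19, 6.79 and 7.32 at 468 nM, against 8.15, 7.99, 8.03, 8.16 and 7.91 at 75 nM. Replicate 2 at 468 nM lay among the 75 nM arrays and the other 4 below them (-0.69 ± 0.18, limma adjusted p = 0.00449). BCL2L11, which encodes the death activator BIM, rose by 0.75 ± 0.19 (limma adjusted p = 0.00411), with 468 nM replicate 4 at 4.35 below 75 nM replicate 4 at 4.59. The initiator caspase CASP9 (0.58 ± 0.14) and BIRC2, an inhibitor of apoptosis (0.56 ± 0.14), rose without overlap. After the shift by reference genes 4 of the 16 rose and 1 fell.

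In the signalling lists, AP-1 and immediate early genes had 3 rises and 3 falls among 23, a share of 26.1% below that of all genes tested. FOSL1, an AP-1 subunit and a reported marker of BET inhibition, was at 5.34, 5.68, 5.39, 4.98 and 5.64 at 468 nM, against 6.38, 6.34, 6.93, 6.85 and 6.94 at 75 nM. All 468 nM arrays were below all 75 nM arrays (-1.28 ± 0.14, limma adjusted p = 2.52e-07). The RNA-binding protein ZFP36L2 fell (-0.91 ± 0.15), as did KLF4 (-0.67). The transcription factor KLF10 (0.40 ± 0.11), the RNA-binding protein ZFP36 (0.76 ± 0.24, limma adjusted p = 0.0172) and IER5 (0.47) rose; KLF4 and IER5 were named after their values were seen. IER5 did not hold its call without 468 nM replicate 3, 4 or 5 or 75 nM replicate 1, 2 or 3 (limma adjusted p of 0.0564 to 0.154), and KLF4 without 468 nM replicate 2, 3 or 5 or 75 nM replicate 4 (0.0554 to 0.092). Without 468 nM replicate 3 only KLF10 rose. ZFP36 missed the threshold without 468 nM replicate 3 (limma adjusted p = 0.0549) or 75 nM replicate 4 (0.0677). MAPK feedback genes had 3 rises and 7 falls among 22 (45.5%). DUSP6, a phosphatase that turns off ERK, stood at 9.78, 9.52, 9.66, 9.63 and 9.86 at 468 nM, against 8.89, 8.75, 9.0, 9.01 and 8.92 at 75 nM. Its arrays were tight within each dose and did not overlap (0.78 ± 0.10, limma adjusted p = 1.01e-06). PHLDA1 (0.91 ± 0.19) and DUSP10, a phosphatase of the stress kinases (0.81 ± 0.17), rose, while DUSP7, another ERK phosphatase, fell (-0.84 ± 0.15, limma adjusted p = 8.19e-05).

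NF-kB subunits, targets and cytokines included 7 falls and 0 rises among 13 (53.8%, beside 30.8% of all genes tested), with a median of -0.62. TNFAIP3, a feedback inhibitor of NF-kB, was at 6.44, 6.61, 6.64, 6.56 and 7.01 at 468 nM, against 7.16, 7.08, 7.46, 7.74 and 7.60 at 75 nM. The highest 468 nM array lay just under the lowest 75 nM array (-0.76 ± 0.13, limma adjusted p = 4.57e-05), and DMSO arrays averaged 7.93 ± 0.06 (SD, n = 4). NFKB1, the p105 and p50 subunit (-0.62 ± 0.12, limma adjusted p = 3.15e-04), the inhibitor NFKBIB (-0.87 ± 0.15) and the TNF receptor adaptor TRAF1 (-1.39 ± 0.30) fell, TRAF1 near the floor and with 468 nM replicate 3 at the level of the 75 nM arrays. The subunits NFKB2, REL and RELA, named after their values were seen, did not pass. Interferon-stimulated genes had 4 rises and 6 falls among 20 (50%). PSMB8, an immunoproteasome subunit (-1.0 ± 0.17), PARP14 (-1.34 ± 0.25) and PARP9 (-0.88 ± 0.20), which modify proteins with ADP-ribose, and the receptor transporter RTP4 (-1.11 ± 0.21) fell. The rises were B2M, the light chain of MHC class I (0.55 ± 0.14, limma adjusted p = 0.00357), with IFI6 (0.64), HLA-C (0.31) and HLA-E (0.28), the last 3 named after their values were seen. HLA-C missed the threshold on leaving out 5 of the 10 arrays (468 nM replicates 1, 3 and 5, 75 nM replicates 2 and 4; limma adjusted p of 0.0561 to 0.123) and HLA-E on leaving out 7, all but 468 nM replicates 1 and 4 and 75 nM replicate 3 (0.0532 to 0.109). After the shift by reference genes 2 of the 20 rose and 6 fell.

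Of 20 FGF ligands and receptor tyrosine kinases, 1 rose and 4 fell (25%, beside 30.8% of all genes tested). FGF7, a fibroblast growth factor, was low at both doses (-1.18 ± 0.24, limma adjusted p = 5.53e-04). The receptor FGFR2 (-0.62 ± 0.18) and the TAM receptor MERTK (-0.41 ± 0.11) fell, as did PDGFB (-0.53, named after its value was seen), while IGF1R, the receptor for insulin-like growth factor 1, rose (0.43 ± 0.12, limma adjusted p = 0.00607). In the YAP and TEAD list 2 of 19 rose and 4 fell, again a share (31.6%) near that of all genes tested. The falls were the DNA-binding partner TEAD4 (-1.19 ± 0.19, limma adjusted p = 2.17e-05), the target gene FJX1 (-1.46 ± 0.26), ASAP1 (-0.42 ± 0.12) and YAP1 itself (-0.48, named after its value was seen). After the shift by reference genes 1 rose and 2 fell. GADD45A and AMOTL1 (0.44, named after its value was seen) were the rises. AMOTL1 missed the threshold on leaving out 7 of the 10 arrays, all but 468 nM replicates 4 and 5 and 75 nM replicate 2 (limma adjusted p of 0.0552 to 0.157), and YAP1 without 468 nM replicate 2 (0.0595) or 4 (0.104) or 75 nM replicate 2 (0.0792).

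Of 12 measured melanocyte lineage genes 1 passed (8.33%), beside 30.8% of all genes tested. That count rests on single arrays: without 468 nM replicate 4, 2 rose and 1 fell. That gene was RAB27A, which moves melanosomes (-0.59 ± 0.11, limma adjusted p = 2.42e-04). SOX10, the lineage transcription factor, had 10.39, 10.37, 9.99, 9.55 and 10.03 at 468 nM, against 9.81, 10.01, 9.57, 9.75 and 9.69 at 75 nM. The groups overlapped, with 468 nM replicate 4 the lowest of all 10 arrays (0.30 ± 0.13, limma adjusted p = 0.0721), and without that array the difference was 0.43 (limma adjusted p = 0.00463), or 0.36 without 75 nM replicate 2 (limma adjusted p = 0.0418). OCA2, a melanosome protein, overlapped between the doses too (0.33 ± 0.13, limma adjusted p = 0.053), and passed without 468 nM replicate 4 (0.44, limma adjusted p = 0.00805) or 75 nM replicate 2 (0.0341) or 5 (0.0192). EDNRB, the endothelin receptor of the lineage, differed by -0.69 ± 0.27 with no overlap but did not pass (limma adjusted p = 0.0573). It passed without 75 nM replicate 4 (limma adjusted p = 0.0386) and in several other settings, among them a fit of the compared arrays alone (0.00746). MITF did not pass the filter on dim genes. Of 18 genes of the undifferentiated melanoma state 2 rose and 3 fell (27.8%, beside 30.8% of all genes tested). Without 468 nM replicate 4 the rises numbered 4, with SNAI2 (0.46, limma adjusted p = 0.0173) and CDH2 (0.39, 0.0228), both named after their values were seen. SERPINE2, a secreted protease inhibitor (1.13 ± 0.19, limma adjusted p = 5.75e-05), and the guidance ligand SLIT2 (1.08 ± 0.25, limma adjusted p = 0.00148) rose. IL6, CD44 and THBS1 (-0.80, named after its value was seen) fell, although CD44 was dim at both doses and its difference was -0.07 (limma adjusted p = 0.738) after repeated quantile normalisation. Extracellular matrix and integrin genes had 5 rises and 3 falls among 31, a share (25.8%) below that of all genes tested. The laminin chains LAMB2 (0.63 ± 0.16) and LAMC1 (0.55 ± 0.15) rose, with LAMA5 (0.42), ITGB1 (0.39) and ITGAV (0.47), the last 3 named after their values were seen, and the integrin ITGA4 fell (-0.97 ± 0.13, limma adjusted p = 2.43e-06). LAMA5 missed the threshold on leaving out 7 of the 10 arrays, all but 468 nM replicates 4 and 5 and 75 nM replicate 2 (limma adjusted p of 0.0532 to 0.127).

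Lysosome and autophagy genes were among the lists with more rises than falls, 13 against 2 of 33 measured (median 0.24). These made up 45.5% of the list, beside 30.8% of all genes tested. PSAP, the precursor of the sphingolipid activator proteins, was at 11.45, 11.54, 11.31, 11.07 and 11.42 at 468 nM, against 10.75, 10.98, 10.86, 10.45 and 10.92 at 75 nM. Replicate 4 was the lowest array at each dose, and the groups did not overlap (0.57 ± 0.10, limma adjusted p = 1.24e-04). The lysosomal membrane protein LAMP2 (0.39 ± 0.07, limma adjusted p = 1.87e-04), the heparan sulfate sulfatase SGSH (0.65 ± 0.13) and the proton pump subunit ATP6V1H (0.47 ± 0.11) rose. The falls, named after their values were seen, were CLN3 (-0.49) and GLA (-0.40). CTSA, a rise also named afterwards, lost its call on leaving out 6 of the 10 arrays (limma adjusted p of 0.0526 to 0.086). Ciliary and intraflagellar transport genes had 22 rises and 1 fall, CC2D2A (-0.62, named afterwards), among 37 (median 0.46). That share was 62.2%, beside 30.8% of all genes tested, and after the shift by reference genes 21 rose and 1 fell. IFT43, a rise named afterwards, passed the filter only through the 468 nM arrays at 24 h, so it is no support for the list. Its call was lost on leaving out 6 of the 10 arrays. BBS7 lost its call on 7 and IFT70A on 4, both named afterwards (limma adjusted p of 0.05002 to 0.106 over these 3 genes). The mean level of the list was 6.42, 6.53, 6.59, 6.47 and 6.58 on the 468 nM arrays, against 6.04, 6.20, 6.06, 6.01 and 6.17 on the 75 nM arrays. The groups did not overlap. WDR19, an intraflagellar transport subunit, had 6.94, 6.83, 7.17, 6.40 and 7.25 at 468 nM, against 5.89, 5.86, 5.85, 5.73 and 6.35 at 75 nM. Replicate 5 at 75 nM came close to replicate 4 at 468 nM (0.98 ± 0.16, limma adjusted p = 3.68e-05). The motor subunit KIF3A (0.69 ± 0.11), the transport subunit IFT80 (0.64 ± 0.11) and BBS2 of the BBSome coat (0.82 ± 0.15) rose without overlap.

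Metabolic and folding genes were mixed. Glycolysis and hypoxia genes had 2 rises and 6 falls among 20 (40%, beside 30.8% of all genes tested). Hexokinase HK2 (-0.86 ± 0.14, limma adjusted p = 2.67e-05), LDHA (-0.62 ± 0.13) and GPI (-0.54 ± 0.13) were among the falls. The rises were the demethylase KDM3A (0.48 ± 0.10) and the glucose transporter SLC2A1 (0.35, named after its value was seen). SLC2A1 missed the threshold without 468 nM replicate 3 (limma adjusted p = 0.0757) or 75 nM replicate 1 (0.0532) or 5 (0.0598). Cholesterol synthesis genes had 2 rises and 3 falls among 23 (21.7%, beside 30.8% of all genes tested). The sterol reductase TM7SF2 rose by 0.98 ± 0.21 (limma adjusted p = 6.68e-04), LSS rose (0.55 ± 0.18), and FASN (-0.47 ± 0.13), ACAT2 (-0.61 ± 0.18) and EBP (-0.51, named after its value was seen) fell. LSS lost its call on leaving out 468 nM replicate 3 (limma adjusted p = 0.0681) or 75 nM replicate 3 (0.0547) or 4 (0.0554), ACAT2 without 468 nM replicate 2 (0.0525) and EBP without 468 nM replicate 2 (0.0806) or 5 (0.0594). Of 20 unfolded protein response genes 8 fell and 0 rose (40%, beside 30.8% of all genes tested), or 4 after the shift by reference genes. XBP1, a transcription factor of that response, was at 7.42, 7.45, 7.30, 7.45 and 7.58 at 468 nM, against 8.61, 8.29, 8.16, 8.31 and 8.53 at 75 nM. The doses were separated by more than the spread within either (-0.94 ± 0.12, limma adjusted p = 1.24e-06), and its partners in the list SDF2L1 (-1.04 ± 0.20) and HERPUD1 (-0.68 ± 0.11) fell. Heat shock genes had 5 falls and 0 rises among 12 (41.7%), including HSPB1 (-0.57 ± 0.08, limma adjusted p = 4.74e-06) and HSPH1 (-0.50 ± 0.07). Of 8 reference genes B2M rose and TFRC, the transferrin receptor, fell (-0.31 ± 0.10, limma adjusted p = 0.0176). TFRC missed the threshold without 468 nM replicate 3 (0.0558) or 75 nM replicate 2 (0.0512). Without 468 nM replicate 4 the falls numbered 3, with HPRT1 (-0.39, limma adjusted p = 0.0324) and TBP (-0.45, limma adjusted p = 0.0186), both named after their values were seen, and HPRT1 also passed without 75 nM replicate 5 (0.0423).

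**Figure D4:**
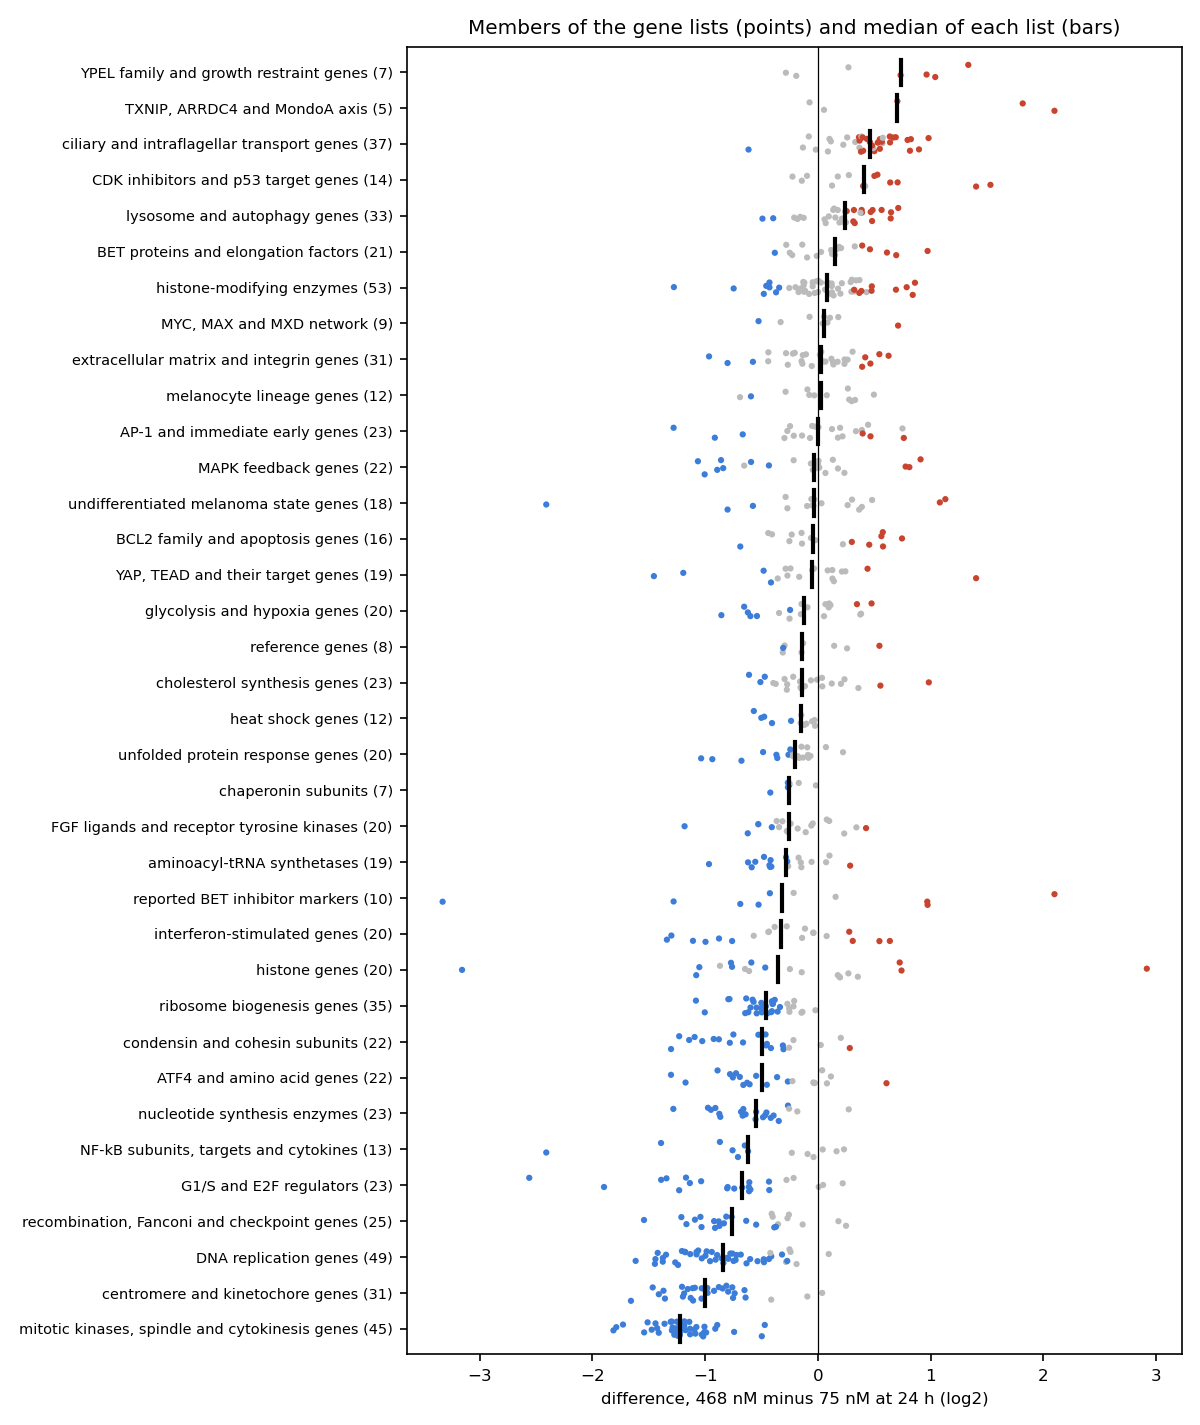
Difference between 468 nM and 75 nM at 24 h (x axis, log2) for the measured members of each gene list (1 point per gene, list size in brackets), with the median of each list as a black bar and lists ordered by it. Red and blue points passed as higher and lower and grey points did not pass; the mitotic list lies wholly below 0 at a median of -1.22, while the ciliary list has a median of 0.46.

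Tested were 75 genes with microRNA symbols, host genes included. With host genes left out, 7 with a mean level above 5 in the higher group passed, 4 higher and 3 lower. These counts cover different sets, so no share is set beside the 30.8% of all genes tested. Of the 7, 6 are named here by the smallest p. Which transcript these probe sets read was not examined, so the values are not taken as levels of mature microRNAs. MIR4324 had 6.99, 7.32, 6.54, 7.37 and 7.10 at 468 nM, against 5.92, 6.24, 5.80, 5.79 and 6.18 at 75 nM. The doses did not overlap (1.08 ± 0.23, limma adjusted p = 7.36e-04). MIR891A was at 4.18, 4.29, 2.65, 4.42 and 1.85 at 468 nM, against 5.57, 5.03, 6.46, 5.80 and 4.70 at 75 nM. The 468 nM arrays spread from the floor to 4.42 and stayed below the 75 nM arrays (-2.04 ± 0.47, limma adjusted p = 0.00164). Their mature sequences, from the RefSeq table of GRCh38.p14, are shown because these 2 of the 6 did not overlap, with the seed (bases 2 to 8) in capitals; the seeds differ.
hsa-miR-4324: cCCUGAGAcccuaaccuuaa
hsa-miR-891a-5p: uGCAACGAaccugagccacuga
MIR570 (0.83 ± 0.20), MIR4534 (0.79 ± 0.25) and MIR99B (0.70 ± 0.23) rose and MIR191 fell (-1.06 ± 0.39), with overlap between the doses. MIR4534 missed the threshold without 468 nM replicate 2 (limma adjusted p = 0.0503), MIR99B without 468 nM replicate 1 or 2 or 75 nM replicate 5 (0.0627 to 0.088), and MIR191 on leaving out 468 nM replicate 3, 4 or 5 or 75 nM replicate 1, 3, 4 or 5 (0.0634 to 0.104).

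The same dose comparison at 4 h, on other arrays, showed which differences were already present early. Over the genes tested the differences at 24 h and at 4 h had a Pearson correlation of 0.26, across genes, which are not independent replicates. Of the 2860 genes that passed at 24 h, 1939 (67.8%) had the same sign at 4 h. Since 48.6% of all genes tested were above 0 at 4 h, a shared sign alone says little about an early difference. Genes higher at 24 h had a median of 0.51 at 24 h and of 0.07 at 4 h, and genes lower at 24 h had -0.61 and -0.06. The difference between the times was tested as an interaction in limma and passed for 1083 genes (11.7%), 367 more positive (3.95%) and 716 more negative (7.71%) at 24 h. That split depends on the scaling: after arrays were shifted to hold the reference genes level, 598 were more positive and 374 more negative, with a median over all genes of 0.16 in place of 0.00. Of the genes lower at 24 h, 667 were also more negative at 24 h than at 4 h, and of the genes higher at 24 h, 309 were more positive.

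The cell division genes belonged to the late differences. In the mitotic list the median difference was -0.02 at 4 h, and 43 of 45 members were more negative at 24 h, or 42 after the shift by reference genes. For DNA replication genes these counts were 34 and 27 of 49, for centromere and kinetochore genes 26 and 23 of 31, and for ribosome biogenesis genes 15 and 1 of 35. CLEC2B, with 0.00 at 4 h, had an interaction of -3.18 ± 0.30 (limma adjusted p = 3.35e-07), IL1RL1 one of -3.32 ± 0.67 (limma adjusted p = 0.00143), and FAM216B one of -3.08 ± 0.32 (limma adjusted p = 9.56e-07). CLEC12B (-2.87 ± 0.34), H2BC14 (-2.81 ± 0.56) and IL7R (-2.54 ± 0.38) followed. IL7R already stood at -0.78 at 4 h. TMEM9B-AS1 had the most positive interaction (1.99 ± 0.34, limma adjusted p = 3.05e-04), since it was lower at the higher dose at 4 h (-0.61) and higher at 24 h. Its arrays of both doses at 4 h lay between 3.16 and 4.58, all below the filter value of 5. LPP-AS2 (1.92 ± 0.33) and MIR4534 (1.76 ± 0.35) likewise had opposite signs at the times, -1.0 and -0.96 at 4 h against 0.92 ± 0.24 and 0.79 ± 0.25 at 24 h. FAM227A (1.77 ± 0.32), H2BC18 (1.73 ± 0.42) and TOB2P1 (1.58 ± 0.29) completed the 6 most positive. Of these, TMEM9B-AS1, FAM227A and H2BC18 passed the filter only through the 468 nM arrays at 24 h. They had to be high there to be tested, which favours a positive interaction. SOX10 differed between the times as well, at -0.64 at 4 h (interaction 0.94 ± 0.18, limma adjusted p = 8.65e-04).

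For other genes the dose differences at the times were of similar size and the interaction did not pass, which does not show that they were equal. IL6 differed by -2.38 at 4 h and -2.41 ± 0.55 at 24 h (interaction -0.03 ± 0.78, adjusted p = 0.987). HEXIM1 differed by 0.82 at 4 h and MYC by -0.65 (interactions 0.16 ± 0.17 and 0.13 ± 0.18, limma adjusted p = 0.589 and 0.701). VASN (1.66 at 4 h), GADD45A (1.06), TNFAIP3 (-1.02) and RTP4 (-1.42) belonged to the same kind. TXNIP and ARRDC4 lay between these kinds, with 0.58 and 0.37 at 4 h and interactions of 1.52 ± 0.24 (limma adjusted p = 1.33e-04) and 1.44 ± 0.19 (limma adjusted p = 2.40e-05).

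**Figure D5:**
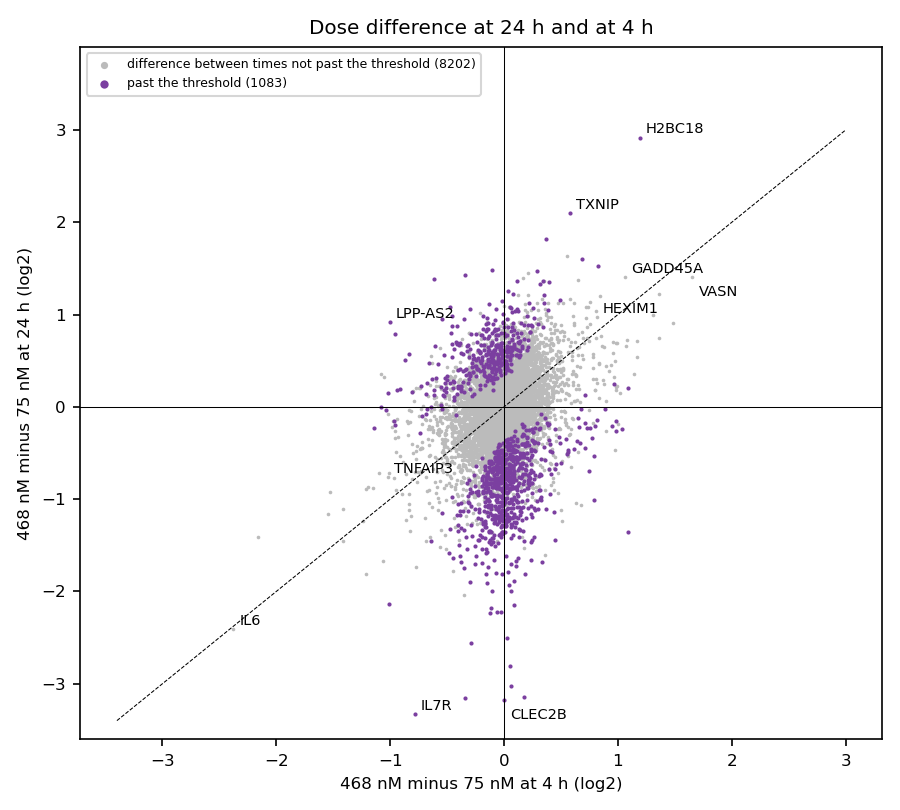
Difference between 468 nM and 75 nM at 24 h (y axis, log2) against the same difference at 4 h (x axis, log2), 1 point per gene, with equality as a dashed line. Purple points are the 1083 genes whose difference changed between the times; CLEC2B and IL7R lie far below the line, while IL6 and HEXIM1 lie near it.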

How the data were processed

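The 28 arrays carried 53617 probe sets each, deposited as linear intensity by the authors, with 0 values missing. The submitters' processing notes name RMA, a method of background correction, equalised array distributions and summary over probes. The version of RMA and the genome build of the array were not given in the sources used here. Equalising distributions hides a change shared by most transcripts. The deposited intensities were transformed to log2. Of the probe sets, 23871 had 1 gene symbol, 1842 several and 27904 none in the annotation used; symbols were updated through RefSeq, and the brightest probe set stood for a gene. This gave 22357 genes, and for 663 of them a choice among probe sets was made. Genes above a log2 value of 5 on at least 4 arrays were tested (9285).

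Group means of the 6 groups were fitted to all 28 arrays with limma 3.58.1 in R 4.3.3 (22 residual degrees of freedom) and Benjamini-Hochberg adjustment over all genes tested, at a threshold of 0.05; tables were made with Python 3.11.15. Differences are given with their standard error. The model was also run on simulated data with known differences. For arrays, depth is not defined and their number limits the precision. The gene lists, the genes named and the comparison were chosen with earlier results of these data known, so a pattern already known from them has no independent support here. Named were the 12 highest and 12 lowest genes without overlap between the doses, the 4 smallest p-values of each list with a call, 12 genes of prior interest, the 6 highest and 6 lowest interactions and up to 6 microRNA genes. One of the genes of prior interest is not reported here. Other names are marked in the text. Alternatives covered the filter, the probe set rule, repeated quantile normalisation, a shift by 8 reference genes, array weights, a trended robust variance, the arrays fitted, a replicate block and leaving out each array. The numbers in the sample titles run in steps that would pair the doses. The paired arrays' deviations correlated between 0.081 and 0.193, each above the highest unpaired value of the same 468 nM array (-0.007 to 0.127). The labels do not say what these numbers mean, so the pairing was used only as the replicate block.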

Additional observations from a re-analysis of the deposited data

Results flagged for a closer look

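In 13 of 336 groups of 5 arrays examined, over the named genes, 1 array lay far from the other 4, and chance alone gives about 1 in 20 such groups. At 468 nM these were IL7R in replicate 2 (3.39, others 2.57 to 2.81), IL6 in replicate 1 (3.32, others 2.39 to 2.44), RRM2 in replicate 4 (9.22, others 8.29 to 8.55), CHEK1 in replicate 4 (7.33, others 6.67 to 6.86), FARSB in replicate 1 (9.46, others 9.71 to 9.80) and IGF1R in replicate 2 (8.72, others 8.04 to 8.18). At 75 nM they were CCT3 in replicate 2 (11.4), NCAPG2 in replicate 4 (8.31), RAD51AP1 in replicate 4 (6.13), H2AZ1 in replicate 4 (6.60), WEE1 in replicate 3 (7.49), DUSP7 in replicate 2 (5.92) and WDR19 in replicate 5 (6.35).

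The dose difference itself differed between 24 h and 4 h for 1083 genes by the interaction in limma. By size the named ones were IL1RL1 (-3.32), CLEC2B (-3.18), FAM216B (-3.08), CLEC12B (-2.87), H2BC14 (-2.81) and IL7R (-2.54) on the negative side, and TMEM9B-AS1 (1.99), LPP-AS2 (1.92), FAM227A (1.77), MIR4534 (1.76), H2BC18 (1.73) and TOB2P1 (1.58) on the positive side. TMEM9B-AS1, FAM227A and H2BC18 passed the filter only through the 468 nM arrays at 24 h.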

How the results depend on the processing

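The count of genes differing between 468 nM and 75 nM at 24 h stayed within 1.5 times the 2860 reported in every alternative run. It was lowest with a filter at a log2 value of 7 (1976, with 4986 genes tested) and highest with the replicate block (3200, of which 2832 were among the 2860). No paired value is given beside single results, because the labels do not explain the title numbers and 1 of the 5 pairs correlated below 0.1. Each 468 nM array did correlate best with the 75 nM array of its own step of title numbers. The replicate block ended no call of a named gene. With it 2 melanocyte lineage genes rose and 2 fell (EDNRB at an adjusted p of 0.00191), and 5 genes of the undifferentiated state rose. Leaving out 1 array gave 2537 to 2929 genes, 1038 to 1345 higher and 1448 to 1584 lower. The count of genes whose dose difference changed between the times was 633 with no filter on dim genes (177 more positive and 456 more negative), where more genes were tested, and 1409 with the replicate block (535 and 874). After the shift by reference genes 598 were more positive and 374 more negative. Leaving out 1 array gave 915 to 1293. Of 3487 values of named genes under alternatives, 58 lost and 19 gained a call and 2 changed sign. Those were BRD2, at -0.000899 by the mean of its probe sets, and CD68, at 0.12 after repeated quantile normalisation; neither passed in any setting. The losses fell on 16 genes, either named with their arrays in the report or lost only with other settings (ASAP1, CCT3, HSPA5, MXD1 and CD44). Further list members with a call lost it on leaving out single arrays. Not all of them are named, so the list counts are approximate. The number of arrays and the floor near 2.5 limit the precision of small and of very large falls.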
